A study of Mus musculus with 2 samples.

Results

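CA1 pyramidal neuron genes are a set of 8 genes whose transcripts are known to be enriched in the pyramidal neurons of hippocampal field CA1: Wfs1, Nov (now Ccn3), Fibcd1, Pou3f1, Man1a, Mpped1, Spink8 and Neurod6. They were followed on 2 two-colour oligonucleotide arrays of mouse hippocampus. Members were taken by name from the platform's probe annotation, which lists 6 of the 8 with 1 probe each, out of 16631 named probes among 23473. Spink8 was added through its older name C630041L24Rik, which the RefSeq gene table gives as a synonym of that gene alone, and medians and counts are given without it and, in the comparisons of members, also with it. Pou3f1 matched no probe by its symbol or by its synonyms and was not analysed here. Of the probes found by name, 5 were above background in all 4 channels, and with Spink8 this made 6 measured genes out of 13596.

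Each array compared 1 pool of total hippocampal RNA from mutant mice, labelled with Cy3, with 1 pool from wild-type mice, labelled with Cy5, and each pool held 5 mice. On the first array the mutant pool came from AtrxdE2 mice, which carry a mutant allele (AtrxΔE2) of Atrx, the gene of a chromatin remodeller, and were not labelled as treated. The second carried AtrxdE2 mice that received the porphyrin TMPyP4, a ligand of G-quadruplex DNA, at 30 mg/kg intraperitoneally, 2 times a week from postnatal day 30 to 90. Strain, sex, the age of the wild-type and untreated mice and any vehicle injection are not stated in the labels, and whether both arrays carried the same wild-type pool is not stated. With 1 array per comparison and no dye swap there was no replicate error, no p-value was computed, and dye and genotype cannot be told apart in any ratio over wild type. In RNA from whole hippocampus, fewer CA1 neurons and less RNA per neuron cannot be told apart either.

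CA1 is the output field of the hippocampal circuit. Its pyramidal neurons receive input from CA3 and from the entorhinal cortex, project to the subiculum and cortex, and are needed for spatial and contextual memory. No single gene marks them in the whole brain, since Wfs1, Mpped1 and Neurod6 are also expressed in pyramidal neurons of the cortex. The members do unrelated work in the cell: wolframin (Wfs1) sits in the endoplasmic reticulum membrane, Man1a trims N-glycans in the Golgi, and Nov and Spink8 encode secreted proteins. Neurod6 and Pou3f1 encode transcription factors, Mpped1 a protein with a metallophosphoesterase domain and Fibcd1 a membrane receptor that binds acetylated sugars.

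Promoter windows are shown because TMPyP4 binds G-quadruplexes, so the G-rich stretches of these windows are part of the context of the treatment. RefSeq sequence of build GRCm38.p6, from 250 bases before to 50 bases after an annotated start, was at hand for 5 of the members in 6 windows, since Mpped1 has 2. Capitals mark a G-quadruplex pattern (4 runs of GGG with 1 to 7 bases between runs, or the same with C for the other strand) or the E-box CAGATG, a motif that NeuroD factors are known to bind, on either strand. Shown are 2 genes that were lower in the treated pool than in wild type (Wfs1 and the upstream window of Mpped1) and 2 that were near 0 or above it (Man1a and Neurod6).
Wfs1 (chr5:36988933-36989232, - strand): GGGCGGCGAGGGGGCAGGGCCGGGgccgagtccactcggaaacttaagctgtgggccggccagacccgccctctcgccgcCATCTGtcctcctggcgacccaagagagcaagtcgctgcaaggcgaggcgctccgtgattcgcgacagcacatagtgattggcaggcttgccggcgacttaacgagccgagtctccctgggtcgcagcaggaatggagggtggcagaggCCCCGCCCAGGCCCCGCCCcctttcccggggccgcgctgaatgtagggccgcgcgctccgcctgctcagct
Mpped1 (chr15:83779773-83780072, + strand): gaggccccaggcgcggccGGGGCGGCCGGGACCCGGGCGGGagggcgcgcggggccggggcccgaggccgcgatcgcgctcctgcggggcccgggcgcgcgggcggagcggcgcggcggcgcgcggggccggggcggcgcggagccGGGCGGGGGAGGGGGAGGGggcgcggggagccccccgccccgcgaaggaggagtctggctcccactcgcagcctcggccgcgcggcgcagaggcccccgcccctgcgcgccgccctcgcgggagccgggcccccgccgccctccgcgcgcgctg
Man1a (chr10:54075688-54075987, - strand): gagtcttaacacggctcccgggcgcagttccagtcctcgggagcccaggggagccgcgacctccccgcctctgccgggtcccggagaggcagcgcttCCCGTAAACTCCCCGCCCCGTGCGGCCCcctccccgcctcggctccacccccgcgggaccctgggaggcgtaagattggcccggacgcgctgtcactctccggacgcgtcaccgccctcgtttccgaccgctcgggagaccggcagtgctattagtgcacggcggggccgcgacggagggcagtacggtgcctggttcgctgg
Neurod6 (chr6:55681214-55681513, - strand): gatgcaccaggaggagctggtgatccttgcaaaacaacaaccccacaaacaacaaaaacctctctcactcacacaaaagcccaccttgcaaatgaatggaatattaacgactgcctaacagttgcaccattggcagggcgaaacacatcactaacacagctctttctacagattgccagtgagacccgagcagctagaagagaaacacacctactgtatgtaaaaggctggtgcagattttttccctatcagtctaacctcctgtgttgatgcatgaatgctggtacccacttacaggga
The G-quadruplex pattern was present in 4 of the 6 windows, those of Wfs1, Fibcd1 and Man1a and the upstream one of Mpped1, against 18.5% of 32851 windows of the same length in the RefSeq table. GC content was 70% for Wfs1, 72.7% for Man1a, 74.3% for Fibcd1 and 89.3% for the upstream Mpped1 window, against a median of 52.7% over all windows, and 46.3% for Neurod6. CAGATG occurred in 1 window, that of Wfs1, and in 17.2% of all windows. The octamer ATGCAAAT, the motif of POU factors such as Pou3f1, occurred in none of the 6 and in 1.74% of all. Among the measured genes with a window, Wfs1 and Mpped1, lower in the treated pool, and Man1a, close to 0, carried the G-quadruplex pattern. Neurod6, above 0, did not, and a link between pattern and ratio was not tested. A match describes these letters only and is not a measurement of folding or of TMPyP4 binding.

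Among secreted proteins, Nov encodes a matricellular protein of the CCN family. The first array gave it a signal above the empty spots of 2032.8 in wild type against 2679.4 in AtrxdE2, and the second 1167.0 in wild type against 2144.2 in AtrxdE2+TMPyP4. Cy3 signals were higher than Cy5 signals for every member, so only normalized values can be read between channels. On the quantile-normalized log2 scale Nov had 11.37 in wild type and 11.18 in AtrxdE2, then 10.84 in the second wild type and 10.48 in the treated pool. Both channels of the second array were therefore below both channels of the first, and each mutant pool was below its own wild type. After loess normalization the log2 ratio of Nov over wild type was -0.22 in AtrxdE2 and -0.33 in AtrxdE2+TMPyP4 (-0.25 and -0.29 in the authors' value table). The SD of the 500 measured genes nearest in signal, used throughout as the yardstick for a single gene, was 0.25 and 0.23. By the loess-normalized ratios Nov was the lowest member in both comparisons. In the authors' value table Spink8 (-0.48) and Wfs1 (-0.39) were lower than Nov in the treated comparison.

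Spink8 encodes a Kazal-type serine protease inhibitor. Wild type had a signal of 109.8 against 184.3 in AtrxdE2, and of 119.6 against 193.0 in AtrxdE2+TMPyP4. Its normalized log2 levels were 7.62, 7.72, 7.86 and 7.53 in the same order. The treated pool was the lowest and its own wild type the highest of the 4 channels. The log2 ratio was 0.10 in AtrxdE2 and -0.30 in AtrxdE2+TMPyP4, where nearest genes had an SD of 0.20 and 0.21 (0.1 and -0.48 in the authors' value table).

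Of the members that act in the secretory pathway, Wfs1 is the gene of Wolfram syndrome and a standard histological marker of CA1. Its signal was 241.3 in wild type against 401.6 in AtrxdE2, and 182.7 in the other wild type against 313.8 in AtrxdE2+TMPyP4. On the normalized log2 scale these were 8.52, 8.59, 8.35 and 8.04. Both channels of the second array were below both of the first, as for Nov, and the treated pool was the lowest. The log2 ratio was 0.08 in AtrxdE2 and -0.28 in AtrxdE2+TMPyP4, with SDs of 0.22 and 0.24 (0.08 and -0.39 in the authors' value table).

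Man1a had signals of 112.8, 161.7, 87.9 and 179.2 in wild type, AtrxdE2, the second wild type and AtrxdE2+TMPyP4. Its normalized log2 levels of 7.65, 7.59, 7.54 and 7.46 lay close together, those of the second array again below those of the first. The log2 ratio was -0.06 in AtrxdE2 and -0.04 in AtrxdE2+TMPyP4, both well inside the SDs of 0.21 and 0.20 (-0.13 and -0.14 in the authors' value table). Man1a thus had nearly the same ratio over wild type on both arrays.

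For Mpped1, signals were 1238.2 in wild type against 1987.7 in AtrxdE2, and 809.1 in the other wild type against 1519.1 in AtrxdE2+TMPyP4. Its normalized log2 levels were 10.69, 10.70, 10.32 and 10.01. Here too, both channels of the second array were below both of the first. The log2 ratio was 0.05 in AtrxdE2 and -0.28 in AtrxdE2+TMPyP4, with SDs of 0.24 and 0.23 (0.03 and -0.26 in the authors' value table).

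Neurod6 encodes a basic helix-loop-helix factor of pyramidal neurons. Signals were 708.0 in wild type against 1065.5 in AtrxdE2, and 648.8 in the other wild type against 1613.8 in AtrxdE2+TMPyP4. The normalized log2 levels were 9.92, 9.85, 10.02 and 10.08, so that the treated pool was the highest channel. The log2 ratio was -0.06 in AtrxdE2 and 0.10 in AtrxdE2+TMPyP4, with SDs of 0.23 and 0.37 (-0.06 and 0.14 in the authors' value table).

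Fibcd1 was near the detection limit. Signals were 6.50 in wild type against 10.1 in AtrxdE2, both above background, and 3.74 in the other wild type against 6.35 in AtrxdE2+TMPyP4. Background was set at the mean of the empty spots plus 2 SD, and the SD of the empty spots was 1.23, 3.30, 0.92 and 3.27 in these channels. In the treated pool Fibcd1 was not above background, so no fold was read there. Quantile-normalized log2 levels on the second array were 6.01 in wild type and 5.95 in the treated pool. Its log2 ratio in AtrxdE2 was -0.02.

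**Figure D1:**
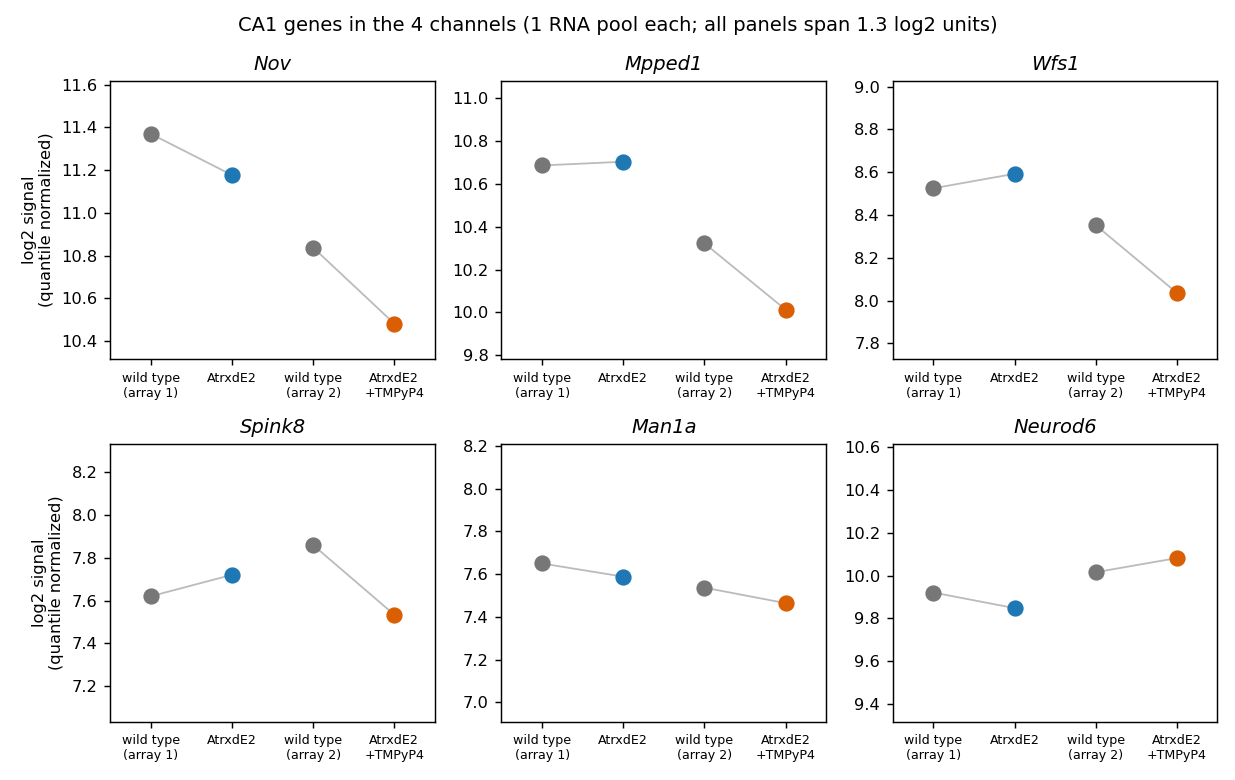
Quantile-normalized log2 signal (y axis) of each measured CA1 gene in the 4 channels (x axis), with 1 RNA pool per point and a grey line joining the channels of 1 array. Nov (10.84 and 10.48), Mpped1 (10.32 and 10.01), Wfs1 (8.35 and 8.04) and Man1a (7.54 and 7.46) are lower in both channels of the second array than in both of the first, while Spink8 is highest in the second wild type at 7.86 and Neurod6 in AtrxdE2+TMPyP4 at 10.08.

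In AtrxdE2 over wild type the CA1 genes lay around 0. The median log2 ratio of the 5 genes was -0.06 (SD 0.12 over genes, 0.00 over all 13596 measured genes), and -0.00 with Spink8. Of the 5, 3 were below 0 (3 of 6 with Spink8), against 50.7% of all genes. Genes were counted from 0.32 log2 units upward, the smaller of 2 limits used here, the larger being 2-fold. None of the 5, nor Spink8, was that much lower or higher, where 5.05% and 4.49% of all genes were. Nov was the farthest from 0, at 1.16-fold lower than wild type and within 1 SD of genes of like signal.

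In AtrxdE2+TMPyP4 over wild type the members parted into a lower and a near-zero group. Nov, Spink8, Mpped1 and Wfs1 had log2 ratios of -0.33, -0.30, -0.28 and -0.28, or 1.253-fold, 1.23-fold, 1.22-fold and 1.22-fold lower than wild type. Man1a and Neurod6 stayed at -0.04 and 0.10. The median was -0.28 for the 5 genes (SD 0.19) and -0.28 with Spink8, against 0.01 over all genes. Of the 5, 4 were below 0 (5 of 6 with Spink8), against 47.2% of all genes. At least 0.32 log2 units lower was 1 of 5 (1 of 6 with Spink8), Nov, against 3.15% of all genes, and Spink8, Mpped1 and Wfs1 lay just inside that limit. None was as much higher, against 5.82%, and none past 2-fold, which 0.0294% of genes were on the lower side and 0.162% on the higher. Among all measured genes Nov lay at percentile 3.02, Spink8 at 3.82, Mpped1 at 4.28 and Wfs1 at 4.46, with Man1a at 34.7 and Neurod6 at 73.1. Against their 500 neighbours in signal, Wfs1 was -1.20 SD and Nov -1.53 SD from the median, with Mpped1 and Spink8 between them, and 5.2% (Spink8) to 8% (Wfs1) of the neighbours were lower still.

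These values depend on how brightness was treated, because both channels of an array differ in a way that varies with signal. Median centring without loess turned the treated ratios of Nov, Mpped1 and Wfs1 positive, at 0.25, 0.27 and 0.06, and left Spink8 at -0.05. It moved the median of all genes to 0.18 and that of the genes nearest in signal to 0.61 for Nov, 0.59 for Mpped1, 0.38 for Wfs1 and 0.25 for Spink8. Relative to those neighbours the 4 genes were at -0.35, -0.32, -0.31 and -0.30, as with loess. Taking off the neighbours' median removes signal-dependent differences as loess does, so this match is not a separate check. Over the settings that use the empty spots or the authors' value table, the distance of Nov from its neighbours stayed between -0.36 and -0.35, and that of Wfs1 between -0.36 and -0.28. With the local background of each spot in place of the empty spots, the log2 ratio of Nov was -0.59 while that of Mpped1 was 0.61, of Spink8 0.13 and of Wfs1 0.033. Relative to their neighbours, Nov was then at -0.73, Mpped1 at 0.46, Spink8 at 0.13 and Wfs1 at -0.032. The local background was 82.3% of the Mpped1 spot in the wild-type channel of the second array, against 29.9% on the first, and 6.19% of the Nov spot against 31.1%.

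**Figure D2:**
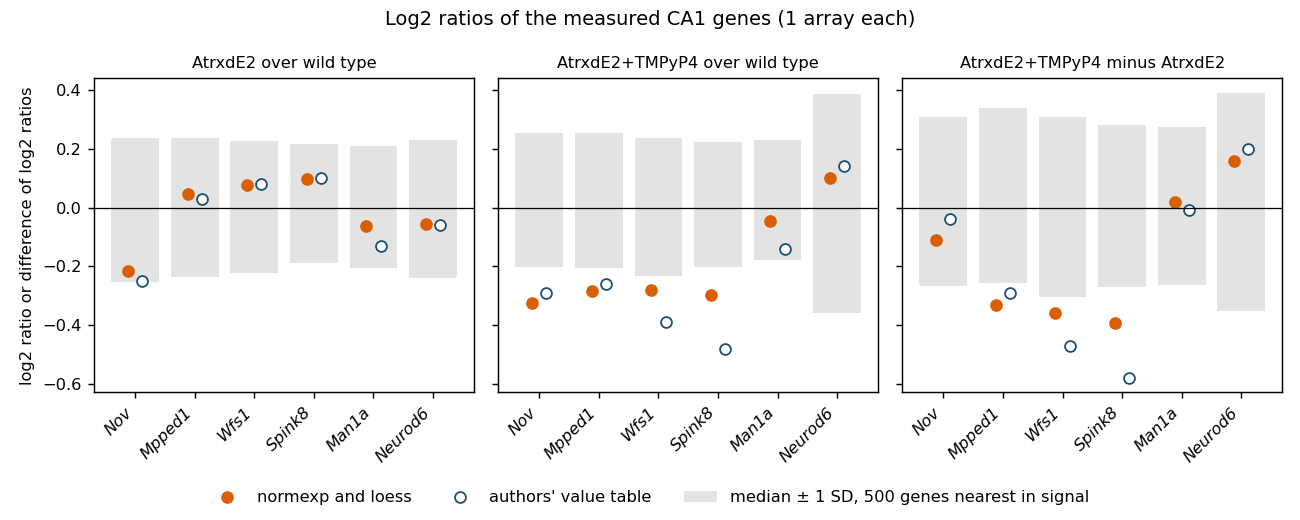
Log2 ratios of the 6 measured CA1 genes in the 3 comparisons, from normexp and loess (filled) and from the authors' value table (open), with the median ± 1 SD of the 500 genes nearest in signal as grey bars. Nov, Mpped1, Wfs1 and Spink8 lie below the bar in AtrxdE2+TMPyP4 over wild type, at -0.28 to -0.33, and inside it in AtrxdE2 over wild type.

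**Figure D3:**
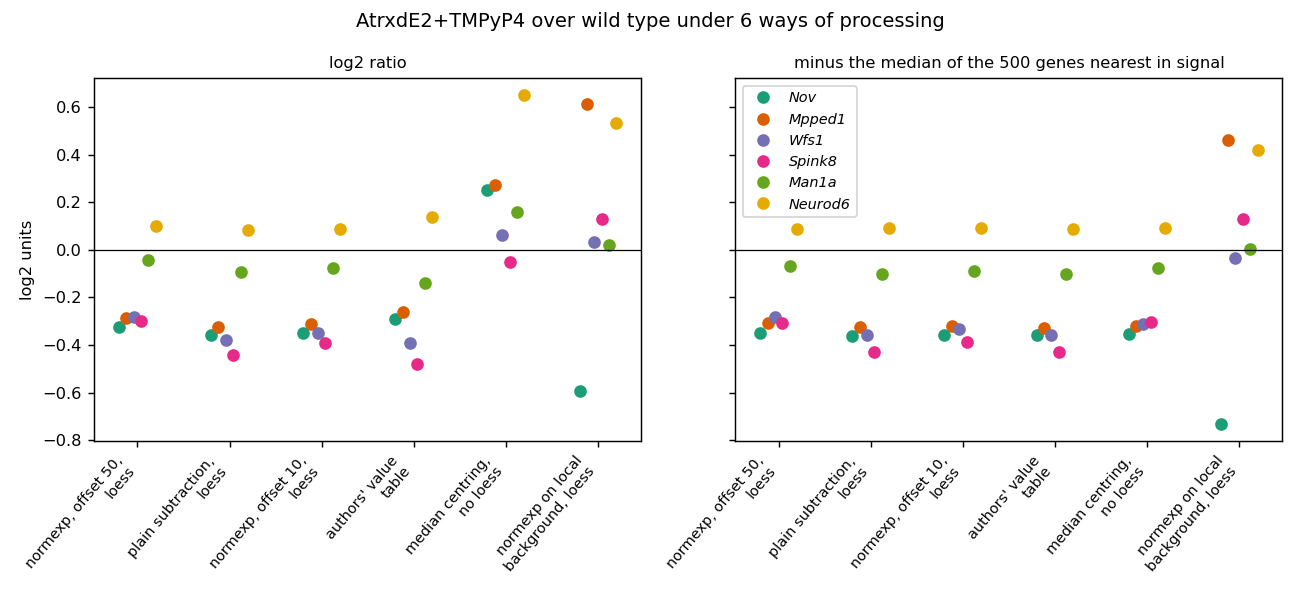
Values of the 6 genes in AtrxdE2+TMPyP4 over wild type under 6 ways of processing (x axis), as log2 ratios (left) and after subtraction of the median of the 500 genes nearest in signal (right), in log2 units. Median centring lifts all 6 on the left but not on the right, and the local background spreads them from -0.59 for Nov to 0.61 for Mpped1 on the left.

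The difference between the treated and the untreated mutant was taken as the difference of both ratios, each over the wild-type channel of its own array. It was -0.39 for Spink8, -0.36 for Wfs1, -0.33 for Mpped1 and -0.11 for Nov, and 0.02 for Man1a and 0.16 for Neurod6. Nearest genes had SDs of 0.28 for Spink8, 0.31 for Wfs1, 0.30 for Mpped1 and 0.29 for Nov. The median was -0.11 for the 5 genes and -0.22 with Spink8 (0.02 over all genes). At least 0.32 log2 units lower were 2 of the 5, Wfs1 and Mpped1 (3 of 6 with Spink8), against 6.51% of all genes, and none was as much higher, against 10.3%. Among the 500 genes nearest in signal, 8.6% lay below Wfs1, 10.6% below Mpped1 and 5.6% below Spink8. Nov, by the loess-normalized ratios the lowest gene in both comparisons with wild type, differed little between them.

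The direct comparison of the Cy3 channels gave more negative differences for Nov, Mpped1, Wfs1 and Man1a, a less negative one for Spink8 and a more positive one for Neurod6. After quantile normalization the treated pool was below the untreated mutant by -0.69 for Nov, -0.69 for Mpped1 and -0.56 for Wfs1, and by -0.19 for Spink8 and -0.12 for Man1a, with Neurod6 at 0.23. Thus 3 of the 5 genes (3 of 6 with Spink8) were at least 0.32 lower, where 14.9% of all genes were, and none as much higher, against 15.9%. Wild type differed between the arrays in the same direction for these 3 genes, by -0.53 for Nov, -0.36 for Mpped1 and -0.17 for Wfs1, while Spink8 was 0.24 and Neurod6 0.09 higher on the second array. Between wild types 2 of the 5 (2 of 6 with Spink8), Nov and Mpped1, were at least 0.32 lower, against 10.6% of all genes, and none as much higher, against 10.5%. Between the wild-type channels the genes nearest in signal had SDs from 0.31 (Man1a) to 0.39 (Nov). The step between wild-type channels was larger than the treated log2 ratio for Nov and Mpped1 and smaller for Wfs1 and Spink8. With the 4 levels of a gene sorted by size, the highest and the lowest were farther apart than the wild-type SD of its neighbours for Nov, Mpped1, Wfs1 and Spink8 and closer than it for Man1a and Neurod6, whereas levels next to each other in that order were closer than it for all 6.

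Other genes of hippocampal neurons did not share the low median of the treated comparison. Other CA1 and subiculum genes, of which 9 of 10 were measured, had a median of -0.02 in AtrxdE2+TMPyP4 over wild type, from the thyroid hormone binding protein gene Crym at -0.51 to the proteoglycan gene Dcn at 0.71. CA2 and CA3 genes (9 measured of 16 listed) had a median of -0.03, from Ccdc3 at -0.45 to the adhesion gene Nectin3, listed as Pvrl3, at 0.48. Dentate granule genes (13 of 16) had 0.03, from the synaptic organizer gene C1ql3 at -0.13 to the channel gene Trpc6 at 0.65. Dcn is also a gene of meningeal fibroblasts. At least 0.32 log2 units lower were 1 of 9, 1 of 9 and 0 of 13 genes of these lists, against 3.15% of all genes, and as much higher were 1 of 9, 1 of 9 and 1 of 13, against 5.82%. These lists were not repeated under the other ways of processing, where the CA1 median moved to 0.25 (median centring) and 0.033 (local background). The offset draws ratios of dim genes toward 0, and these lists hold dim genes. Gpr161 was at 0.24 here and 0.51 in the authors' value table, and Nts at -0.07 and -0.26.

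Genes of forebrain excitatory neurons as a class (12 measured of 14) had a median of -0.07 in the treated comparison and 0.15 in AtrxdE2. In the treated pool they ranged from the transcription factor gene Neurod2 at -0.34 to the homeobox gene Emx1 at 0.71. Their wild-type channels differed between arrays by up to -1.24 for Nrgn, which encodes the calmodulin-binding protein neurogranin, and the direct difference between Cy3 channels reached -1.40 for Camk2a. These 2 genes were the extremes of their list: the median difference between wild-type channels was -0.07, 5 of the 12 genes were higher on the second array, and Tbr1 was the highest at 0.34. Pan-neuronal genes (10 of 11) had medians of -0.12 in AtrxdE2 and -0.04 in AtrxdE2+TMPyP4, with Uchl1 lowest in both at -0.68 and -0.58 and with Eno2 at 0.43 and Nefm at 0.65 the highest. Interneuron genes (9 of 10) had medians of -0.01 and -0.01, from Lhx6 at -0.32 to Npy at 0.22 in AtrxdE2 and from Slc32a1 at -0.37 to Pvalb at 0.87 in AtrxdE2+TMPyP4.

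In AtrxdE2 over wild type the other hippocampal lists were near 0 as the CA1 members were. Medians were -0.08 for other CA1 and subiculum genes (Crym at -0.20 to Etv1 at 0.20), -0.03 for CA2 and CA3 genes (Nrip3 at -0.52 to Nectin3 at 0.42) and -0.06 for dentate genes (Plk5 at -0.17 to Trpc6 at 0.85). In the difference of treated and untreated mutant they were 0.06 (Crym at -0.31 to Dcn at 0.55), -0.03 (Ccdc3 at -0.42 to Nrip3 at 0.77) and 0.06 (C1ql3 at -0.28 to Plk5 at 0.27). Forebrain excitatory neuron genes had a median difference of -0.13, near the -0.11 of the 5 CA1 members, and striatal genes had -0.23. Pan-neuronal and interneuron genes were at 0.07 and 0.13.

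**Figure D4:**
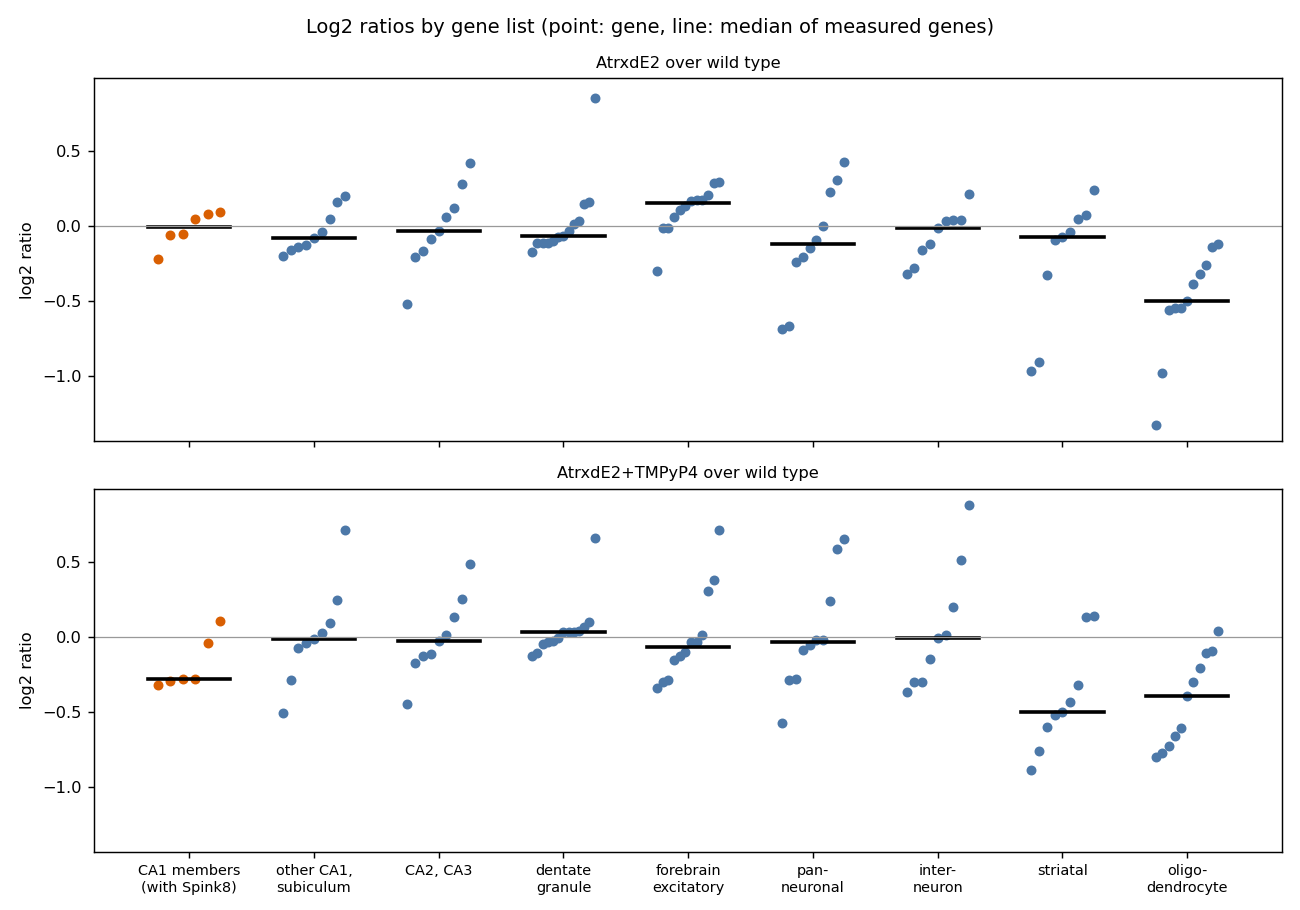
Log2 ratios (y axis) of the measured genes of 9 lists (x axis) in AtrxdE2 over wild type (top) and AtrxdE2+TMPyP4 over wild type (bottom), with 1 point per gene and a black line at each median. The CA1 members shift from a median of -0.00 to -0.28 with Spink8 included, while other CA1 and subiculum, CA2 and CA3 and dentate genes stay between -0.08 and 0.03.

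Markers of other cells and regions also differed from wild type, choroid plexus and striatal genes in more members in the treated comparison and oligodendrocyte genes in both, and their part in the CA1 values was not tested. Choroid plexus genes had a median log2 ratio of 1.44 in the treated comparison and of 0.02 in AtrxdE2. Apart from Ttr these genes were dim in wild type, and the offset draws ratios of dim genes toward 0. In the treated comparison Folr1 was at 1.93 here and 6 in the authors' value table, and Clic6 at 1.44 and 3.38. Kcne2 was at 1.38 and 3.46, while Ttr, at 6.59 and 6.94, and Ace, at -0.00 and -0.07, differed less. At least 0.32 log2 units higher were 8 of the 9 measured in the treated comparison, against 5.82% of all genes. In AtrxdE2 choroid plexus genes were as much higher for 1 of 9, against 4.49%. Their summed signal, which is not normalized between channels, was 62514 in the treated pool and 325.9 in its wild type, of which the transthyretin gene Ttr alone gave 60791.5 and 219.4, and 574.0 in AtrxdE2 and 180.2 in wild type. Of the 12 with a probe, 12 were above background in the treated pool, while Cldn2 and F5 were not in its wild type. Of the striatal genes 7 of 9 measured were as much lower (median -0.50, and 3 of 9 with a median of -0.07 in AtrxdE2), with summed signals of 4690 in AtrxdE2+TMPyP4 and 3121 in its wild type, and of 5695 in AtrxdE2 and 6035 in wild type. Oligodendrocyte genes were as much lower for 6 of 11 (median -0.40) and, in AtrxdE2, for 7 of 11 (median -0.50). Among all genes, 3.15% were as much lower in the treated comparison and 5.05% in AtrxdE2. All 9 measured striatal and all 11 oligodendrocyte genes were above background in every channel.

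Relatives of the members, and genes linked to them by function or disease, gave no common direction. Of the NeuroD family, Neurod1 had log2 ratios of 0.26 in AtrxdE2 and 0.48 in AtrxdE2+TMPyP4, and Neurod2 0.29 and -0.34. Neurog1, of the related neurogenin group, had -0.11 and -0.11. Of the class III POU factors, the family of Pou3f1, Pou3f2 had 0.37 and 0.30, Pou3f3 -0.24 and -0.01 and Pou3f4 -0.03 and -0.23. Among the CCN proteins related to Nov, Ccn1 (listed as Cyr61) had -0.08 and -0.33, Ccn2 (Ctgf) -0.33 and 0.42 and Ccn4 (Wisp1) 0.14 and 0.03.

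Other alpha-mannosidase genes, of class I as Man1a is or of class II, lay between -0.20 and 0.19. Man1a2 had -0.11 in AtrxdE2 and 0.06 in AtrxdE2+TMPyP4, Man1b1 0.19 and 0.06, Man1c1 -0.20 and 0.07, Man2a1 -0.11 and 0.10 and Man2a2 -0.05 and -0.02. Mpped2, the paralog of Mpped1, had 0.01 and -0.16. The protease inhibitor genes Spink2 and Spink5 had -0.03 and -0.14, and -0.12 and 0.02. Cisd2 (listed as 1500009M05Rik), the other gene known to be mutated in Wolfram syndrome, had 0.09 and 0.25, and Fgl2, which like Fibcd1 encodes a fibrinogen-like domain, 0.00 and 0.23. In the treated comparison 2 of the 19 measured related or linked genes were at least 0.32 log2 units lower (Neurod2 and Ccn1), against 3.15% of all genes. As much higher were 2 (Neurod1 and Ccn2), against 5.82%.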

How the data were processed

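RNA of hippocampus was read on 2 two-colour arrays, 1 for each mutant pool. Per the file headers, the authors deposited for each spot the median intensity and the local background intensity in both channels, merged from several gains. Per the labels, their value table gives a normalized log2 ratio, mutant to wild type. The scanner and its software are not given in the sources used. Direction follows the dyes in the labels. Intensities were background-corrected with normexp (limma 3.58.1, R 4.3.3, offset 50), with the mean of the empty spots trimmed by 0.05 at each end as background, and normalized by loess within each array. Measured probes were unmarked and above that mean plus 2 SD in all 4 channels (18664 of 23473), and probes of a gene were averaged. Symbols were matched, also through synonyms, to the RefSeq table of GRCm38.p6. The number of arrays limits the precision: there was no test, and genes were counted past 0.32 log2 units and 2-fold. The scripts were tested on simulated data. Every member was named, with the lowest and highest gene of each list of hippocampal and forebrain neurons and every measured related or linked gene. Cell-marker lists of meninges, thalamus and astrocytes were also fixed and are summarized in the closing section. The members and lists were chosen with earlier results of these data known.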

Additional observations from a re-analysis of the deposited data

Results flagged for a closer look

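Of the 6 measured CA1 genes, 4 had log2 ratios over wild type of opposite sign on the arrays, and none of these differences was tested, since each rests on 1 pool per group. Spink8 went from 0.10 in AtrxdE2 to -0.30 in AtrxdE2+TMPyP4, a difference of -0.39. Wfs1 went from 0.08 to -0.28, a difference of -0.36, and Mpped1 from 0.05 to -0.28, a difference of -0.33. Neurod6 went the other way, from -0.06 to 0.10, a difference of 0.16, which was inside the SD of 0.37 among genes nearest in signal.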

How the results depend on the processing

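The median of the CA1 genes in AtrxdE2 over wild type was 0.21 with median centring in place of loess, against -0.06, and between -0.06 and 0.15 in the other alternatives. In AtrxdE2+TMPyP4 over wild type it was 0.25 with median centring and 0.033 with the local background, against -0.28, and between -0.32 and -0.17 elsewhere. For the difference of treated and untreated mutant it was -0.56 from the Cy3 channels, against -0.11, 0.10 with median centring, and between -0.22 and -0.04 in the others. Under median centring the treated ratio of Nov was reversed to 0.25, and with the local background the difference of Mpped1 was reversed to 0.46. The number of the 5 genes at least 0.32 log2 units lower in the treated pool was 3 with plain subtraction, 2 with an offset of 10 and 0 with median centring, against 1. For the difference it was 1 in the authors' value table, 1 with the local background and 0 with median centring, against 2. As much higher were 2 of the 5 with the local background and 1 with median centring, against 0, both in the treated pool and in the difference. The share of all genes past the limit was not counted under these alternatives, so the counts cannot be set against it. Plain subtraction and the offset of 10 also widened the spread of other genes. For the neighbours of Wfs1 in the treated comparison the SD was 0.29 and 0.27, against 0.24. The wild-type channels differed by a median of -0.17, or -0.22 with median scaling and -0.14 with Spink8. The addition of Spink8 was chosen after seeing the data. No paired analysis was possible because each group has 1 array. At its signal Fibcd1 gives no fold for the treated pool and no difference.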

Other observations

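Among marker lists of other cells, meninges and fibroblast genes (13 measured of 13 listed) had a median log2 ratio of 0.35 in AtrxdE2 and 0.68 in AtrxdE2+TMPyP4, from Aldh1a2 at -0.15 to Crabp2 at 1.255 in the treated comparison. Thalamus and habenula genes (9 of 10) had -0.06 and 0.01, from Prkcd at -0.79 to Rora at 0.55 in the treated pool. Astrocyte genes (9 of 9) had 0.00 and 0.11, with the glutamine synthetase gene Glul at -0.93 and the glutamate transporter gene Slc1a2 at 0.58 in the treated pool.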
